A study of Mus musculus with 3 samples.

Results

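The 40 genes described here encode proteins that copy and divide the chromosomes of a cycling cell, and they were followed across 3 immune cell populations of the mouse intestinal epithelium. The members were named by symbol, and each matched 1 Ensembl gene ID among the 37224 IDs counted. For the description they were divided into 20 mitotic genes and 20 genes of the G1/S transition and DNA replication. All 40 reached at least 1 CPM, a gene's count relative to all gene counts of its library, in at least 1 library, as did 13649 IDs in total. Each population was collected by cell sorting and gave 1 RNA-seq library. The iCD8a library came from CD45+CD8α+ cells. The ILC1 library came from NKp46+NK1.1+ cells, which are group 1 innate lymphoid cells, a class related to natural killer cells. The CD11b+ library came from CD45+CD8α−CD11b+ cells, which the submitters call myeloid. All 3 libraries carry the RAG-2 null genotype, which removes mature T and B cells, and no library of another genotype was analysed here. The sources used here give neither the age of the mice nor whether several were pooled for a library.

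A dividing cell passes through G1, DNA synthesis (S), G2 and mitosis, and many genes of this machinery are transcribed only around the phase that needs their products. The genes of G1/S are switched on by E2F transcription factors when cyclin-dependent kinases release the retinoblastoma proteins from them. The mitotic genes come later and are held down in resting cells by the DREAM complex. Transcripts of both sets are therefore used to mark proliferating cells, while several replication genes are also transcribed at lower levels outside S phase.

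Reads counted on genes numbered 21678113 in iCD8a cells, 22181660 in ILC1 cells and 30511296 in CD11b+ cells. Of the sorting antigens, the transcripts of CD8α, NKp46, NK1.1 and CD11b were highest in the library sorted on them, with Cd8a at 2636 CPM in iCD8a, Ncr1, which encodes NKp46, at 396 CPM and Klrb1c, which encodes NK1.1, at 546 CPM in ILC1, and Itgam, which encodes CD11b, at 845 CPM in CD11b+. Itgam was also counted at 362 CPM in iCD8a and 187 CPM in ILC1, and Klrb1c at 207 CPM in iCD8a. Ptprc, which encodes CD45, was high in every library, at 2136 CPM in iCD8a cells, 2695 in ILC1 cells and 1795 in CD11b+ cells, and so highest in ILC1. Levels throughout are CPM scaled by TMM factors, and each fold or ratio is followed by a 95% exact interval for counting error, in which the spread between mice has no share. With 1 library per population no difference has a replicate check and no p-value could be computed. A gene was counted as higher or lower in the first-named library of a pair when its fold was at least 2 and the bound of the interval nearest to 1 was at least 1.5. In bulk RNA, fewer cycling cells and less RNA per cycling cell cannot be told apart.

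The mitotic genes were lowest in ILC1 and mostly highest in CD11b+, with iCD8a between. Of the 20 mitotic members, 18 had their lowest level in ILC1, which was the case for 31.3% of all 13649 genes. CD11b+ held the highest level for 15 of 20, against 38.3% of all genes. The full order CD11b+ above iCD8a above ILC1 was seen for 15 of 20 mitotic members and for 19.7% of all genes. This order ranks levels without regard to counting error. Between iCD8a and CD11b+, 0 of 20 mitotic members were counted as higher in iCD8a and 1 as lower (5%), against 17% and 23% of all genes. Without scaling, CD11b+ was highest for 13 of 20 and the full order was seen for 13, while 18 of 20 were still lowest in ILC1. The replication set was less uniform. ILC1 was lowest for 11 of its 20 members, and the same full order was seen for 8.

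**Figure D1:**
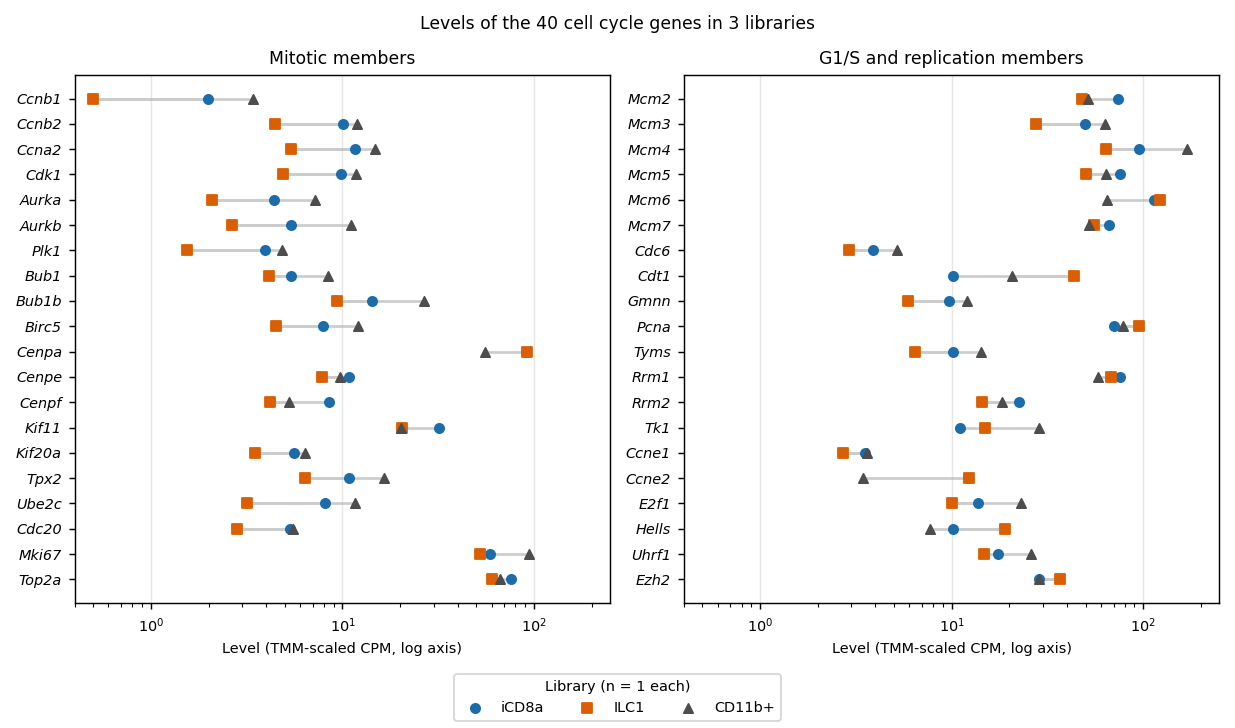
Level of each of the 40 genes in TMM-scaled CPM on a log axis, with mitotic genes on the left and G1/S and replication genes on the right (circle iCD8a, square ILC1, triangle CD11b+, 1 library each). The ILC1 square is the leftmost point for 18 of 20 mitotic genes. In the right panel it is the rightmost point for 6 of 20 genes, among them Cdt1, at 43.5 CPM, and Mcm6, at 122 CPM.

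In counts of members, 7 of 40 were higher in iCD8a cells than in ILC1 cells (17.5%), against 9.93% of all genes, and 1 was lower (2.5%), against 11.4% of all genes. Between iCD8a and CD11b+, 1 member was higher in iCD8a (2.5%) and 3 were lower (7.5%), against 17% and 23% of all genes. Both of these shares lie under the background. Between ILC1 and CD11b+, 3 members were higher in ILC1 (7.5%), against 16.6% of all genes, and 17 were lower (42.5%), against 23.1%. The median log2 ratio of the 40 members was 0.60 in iCD8a over ILC1, −0.27 in iCD8a over CD11b+ and −0.85 in ILC1 over CD11b+. The same medians over all genes were 0.04, 0.04 and 0.00. The mitotic set carried most of the counted members. It held all 7 that were higher in iCD8a cells than in ILC1 cells and 12 of the 17 that were lower in ILC1 cells than in CD11b+ cells. Its median log2 ratios were 0.86, −0.32 and −1.31 for the 3 pairs in the same order, and those of the replication set were 0.32, −0.11 and −0.35. The medians between iCD8a and CD11b+ depended on the scaling. Without scaling they were −0.08 for the mitotic set, 0.13 for the replication set and 0.29 for all genes.

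**Figure D2:**
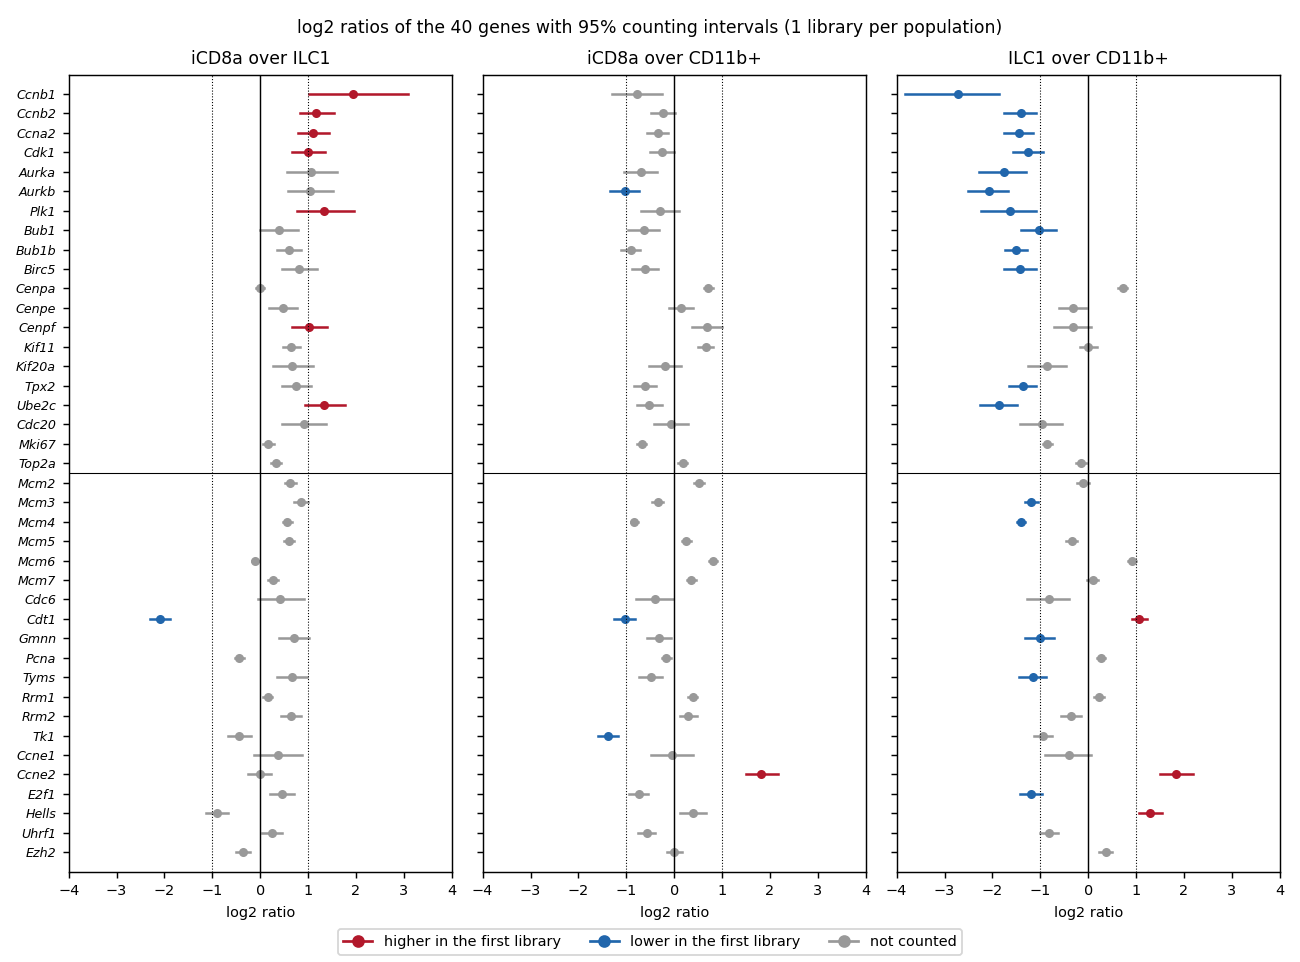
log2 ratio of each gene for the 3 pairs of libraries, with 95% exact counting intervals as bars and dotted lines at a fold of 2. Mitotic genes stand above the horizontal line and replication genes below it. Red marks the genes counted as higher in the first-named library and blue those counted as lower, and 12 of 20 mitotic genes are blue in the right panel.

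The upstream sequences of several members are shown because most mitotic members shared 1 order across the libraries, and so that the letters counted here can be seen. Cenpa, which is among those shown, did not have that order. RefSeq's GRCm38.p6 table held an entry for 33 of the 40 members, without Ccna2, Aurkb, Kif20a, Tpx2, Mcm4, Gmnn and Ccne2. In the 250 bases before the start, 3 motifs were searched on both strands: an E2F motif spelled TTCCCGC or also TTCGCGC or also TTGCCGC or also TTGGCGC, the cell cycle homology region or CHR spelled TTTGAA or also TTCGAA, which the DREAM complex binds, and CCAAT, the motif of the factor NF-Y. CCAAT stood in 15 of 16 mitotic promoters (93.8%), in 10 of 17 replication promoters (58.8%) and in 34.5% of 27018 promoters. CHR stood in 8 of 16 mitotic promoters (50%), in 2 of 17 replication promoters (11.8%) and in 17.4% of all promoters. The E2F motif stood in 3 of 16 mitotic promoters (18.8%), in 8 of 17 replication promoters (47.1%) and in 7.97% of all promoters. These are matches of letters, not measured binding, and bases at or after the start were not searched.

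Mki67, Cenpa and Ccnb2 are the mitotic examples, which hold CCAAT with or without CHR, and Mcm6 and Pcna stand for replication. The examples do not divide cleanly, since Mki67 also holds an E2F match and Pcna holds only a CCAAT match. Each run is 250 bases read 5′ to 3′ on the gene's strand and ends 1 base before the annotated start. Capitals mark every match to the 3 motifs or to their reverse complements, such as ATTGG for CCAAT. Mki67 lies on the minus strand at chr7:135716380-135716629, Cenpa on the plus strand at chr5:30666636-30666885 and Ccnb2 on the minus strand at chr9:70421555-70421804. Mcm6 lies on the minus strand at chr1:128359706-128359955 and Pcna on the minus strand at chr2:132253181-132253430. In Mcm6 each run of 10 capitals is a pair of overlapping E2F matches, 1 on each strand. Ccnb2 was chosen after its values were seen.
Mki67: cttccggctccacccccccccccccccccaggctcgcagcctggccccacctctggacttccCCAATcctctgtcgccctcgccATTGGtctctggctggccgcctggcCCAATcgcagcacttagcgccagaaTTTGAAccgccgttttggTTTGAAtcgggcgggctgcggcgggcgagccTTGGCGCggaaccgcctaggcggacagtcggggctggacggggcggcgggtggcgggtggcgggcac
Cenpa: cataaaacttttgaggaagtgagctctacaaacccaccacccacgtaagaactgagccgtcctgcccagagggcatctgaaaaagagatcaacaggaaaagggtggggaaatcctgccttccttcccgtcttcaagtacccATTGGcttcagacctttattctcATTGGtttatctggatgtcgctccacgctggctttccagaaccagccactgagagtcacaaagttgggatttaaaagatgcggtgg
Ccnb2: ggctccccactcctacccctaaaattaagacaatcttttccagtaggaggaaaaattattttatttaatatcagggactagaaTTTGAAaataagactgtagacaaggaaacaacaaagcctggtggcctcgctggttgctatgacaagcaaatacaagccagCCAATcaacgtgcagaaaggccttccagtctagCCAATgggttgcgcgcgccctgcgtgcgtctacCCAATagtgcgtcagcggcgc
Mcm6: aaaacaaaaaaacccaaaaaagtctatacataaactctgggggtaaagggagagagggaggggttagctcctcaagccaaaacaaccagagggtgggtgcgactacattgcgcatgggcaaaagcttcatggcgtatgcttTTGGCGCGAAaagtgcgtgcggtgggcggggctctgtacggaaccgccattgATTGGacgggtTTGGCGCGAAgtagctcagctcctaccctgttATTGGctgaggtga
Pcna: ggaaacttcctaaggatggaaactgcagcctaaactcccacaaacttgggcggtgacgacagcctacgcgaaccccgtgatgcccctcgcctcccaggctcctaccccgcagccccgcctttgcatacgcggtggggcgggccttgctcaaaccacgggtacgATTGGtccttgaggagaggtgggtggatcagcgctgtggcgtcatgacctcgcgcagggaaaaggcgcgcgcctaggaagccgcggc

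The cyclins and kinases that start and drive mitosis all had that order, and the low level in ILC1 was its clearest part. The step between iCD8a and CD11b+ was within counting error for Ccnb2, at a ratio of 0.848 (0.715 to 1.004). The same held for Plk1, at 0.816 (0.620 to 1.071). Ccnb1 (ENSMUSG00000041431), a cyclin that activates Cdk1 at the entry to mitosis, had 1.99 CPM in iCD8a cells, 0.50 CPM in ILC1 cells and 3.4 CPM in CD11b+ cells, from 47, 11 and 96 reads. It was 3.98-fold higher in iCD8a cells than in ILC1 cells (2.03 to 8.51) and 6.81-fold lower in ILC1 cells than in CD11b+ cells (3.64 to 14.1). These folds have the widest intervals among the members, because few reads lie behind them. Ccnb2 (ENSMUSG00000032218), the other B-type cyclin, had 10.1 CPM in iCD8a cells, 4.45 in ILC1 cells and 11.9 in CD11b+ cells, and was 2.26-fold higher in iCD8a cells than in ILC1 cells (1.78 to 2.89). Ccna2 (ENSMUSG00000027715), a cyclin of S phase and G2, had 11.7 CPM in iCD8a cells, 5.41 in ILC1 cells and 14.8 in CD11b+ cells, a 2.16-fold higher level in iCD8a cells than in ILC1 cells (1.74 to 2.70). In both genes iCD8a lay close to CD11b+, with log2 ratios of −0.24 and −0.34, and ILC1 lay apart. Cdk1 (ENSMUSG00000019942), the kinase that these cyclins activate, had 9.82 CPM in iCD8a cells, 4.91 in ILC1 cells and 11.7 in CD11b+ cells. Its 2.0-fold difference between iCD8a and ILC1 (1.59 to 2.54) was at the limit of the rule and was not counted with DESeq2 size factors, where its log2 ratio was 0.98.

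The mitotic kinases followed the cyclins. Plk1, a kinase of spindle formation and mitotic exit, had 3.94 CPM in iCD8a cells, 1.54 in ILC1 cells and 4.82 in CD11b+ cells, and was 2.55-fold higher in iCD8a cells than in ILC1 cells (1.70 to 3.89). Aurka, the kinase of the spindle poles, had 4.4 CPM in iCD8a cells, 2.09 in ILC1 cells and 7.16 in CD11b+ cells. Aurkb, the kinase of the chromosomal passenger complex, had 5.42 CPM in iCD8a cells, 2.64 in ILC1 cells and 11.1 in CD11b+ cells. The Aurora kinases were about as far apart between iCD8a and ILC1 as the cyclins, with folds of 2.11 (1.47 to 3.05) and 2.06 (1.496 to 2.85), but their near bounds missed the limit. Both were counted without scaling, at log2 ratios of 1.20 and 1.17. Aurkb was the 1 mitotic gene counted between iCD8a and CD11b+, 2.05-fold lower in iCD8a (1.66 to 2.54). It was not counted without scaling, where its log2 ratio was −0.79. All 7 cyclins and kinases were lower in ILC1 cells than in CD11b+ cells, by folds between 2.38 for Cdk1 (1.91 to 2.99) and 6.81 for Ccnb1. Summed, the 7 genes came to 47.3 CPM in iCD8a cells, 21.5 CPM in ILC1 cells and 64.9 CPM in CD11b+ cells.

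Genes of the centromere and the spindle checkpoint were less uniform. Bub1b, which encodes the checkpoint protein BubR1, had 14.2 CPM in iCD8a cells, 9.41 in ILC1 cells and 26.8 in CD11b+ cells, and was 2.85-fold lower in ILC1 cells than in CD11b+ cells (2.44 to 3.33). Its partner Bub1 had 5.42 CPM in iCD8a cells, 4.14 in ILC1 cells and 8.44 in CD11b+ cells. Birc5, which encodes survivin, had 7.91 CPM in iCD8a cells, 4.50 in ILC1 cells and 12.1 in CD11b+ cells. All 3 were lowest in ILC1 and highest in CD11b+. Bub1 and Birc5 were 2.04-fold (1.6 to 2.63) and 2.68-fold (2.14 to 3.39) lower in ILC1 cells than in CD11b+ cells. Bub1 was not counted there under 4 of the other scalings or depths, at log2 ratios of −0.92 to −0.97. Cenpf, a large kinetochore protein, had 8.46 CPM in iCD8a cells, 4.18 in ILC1 cells and 5.25 in CD11b+ cells, so that here iCD8a and not CD11b+ was highest. Its 2.02-fold higher level in iCD8a cells than in ILC1 cells (1.57 to 2.62) was not counted with DESeq2 size factors. Cenpe, a kinetochore motor, stayed within 10.8 CPM in iCD8a cells, 7.77 in ILC1 cells and 9.75 in CD11b+ cells.

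Cenpa (ENSMUSG00000029177), the histone H3 variant that marks centromeres, did not follow the other mitotic genes. It had 91.2 CPM in iCD8a cells, 91.4 CPM in ILC1 cells and 55.5 CPM in CD11b+ cells. The iCD8a and ILC1 libraries did not differ beyond counting error, at a ratio of 0.998 (0.938 to 1.06), while iCD8a was 1.64-fold (1.54 to 1.75) and ILC1 1.65-fold (1.54 to 1.76) above CD11b+, short of the rule. Per kilobase of its principal transcript it was the most abundant mitotic member in each library, at 62.2, 62.3 and 37.9 CPM per kilobase.

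Spindle motors and assembly factors, and the genes of anaphase, kept ILC1 at or near the bottom. Tpx2, which activates Aurora A on spindle microtubules, had 10.8 CPM in iCD8a cells, 6.41 in ILC1 cells and 16.5 in CD11b+ cells, and was 2.57-fold lower in ILC1 cells than in CD11b+ cells (2.13 to 3.13). Kif11, the motor that separates the spindle poles, had 31.9 CPM in iCD8a cells against 20.4 in ILC1 cells and 20.3 in CD11b+ cells. Kif20a, a motor of cytokinesis, had 5.59 CPM in iCD8a cells, 3.50 in ILC1 cells and 6.34 in CD11b+ cells. Only Tpx2 of these 3 was counted in any pair. Ube2c, the ubiquitin-conjugating enzyme of the anaphase-promoting complex, had 8.08 CPM in iCD8a cells, 3.18 in ILC1 cells and 11.6 in CD11b+ cells. Ube2c was 2.54-fold higher in iCD8a cells than in ILC1 cells (1.92 to 3.39) and 3.64-fold lower in ILC1 cells than in CD11b+ cells (2.81 to 4.79). Cdc20, which activates that complex, had 5.29 CPM in iCD8a cells, 2.82 in ILC1 cells and 5.53 in CD11b+ cells, and none of its ratios was counted.

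Mki67 and Top2a, the transcripts most used as proliferation markers, separated the libraries less than the cyclins did. Mki67 (ENSMUSG00000031004), which encodes the coat protein of mitotic chromosomes Ki-67, had 59.1 CPM in iCD8a cells, 52.4 CPM in ILC1 cells and 94.7 CPM in CD11b+ cells. Top2a (ENSMUSG00000020914), the topoisomerase that untangles sister chromatids, had 75.6 CPM in iCD8a cells, 60.2 CPM in ILC1 cells and 66.8 CPM in CD11b+ cells. Between iCD8a and ILC1 the folds were 1.13 for Mki67 (1.04 to 1.22) and 1.26 for Top2a (1.17 to 1.35), and neither gene was counted in any pair. Within a library the count ratio of Mki67 over Top2a was 0.782 in iCD8a cells (0.728 to 0.839), 0.872 in ILC1 cells (0.805 to 0.944) and 1.42 in CD11b+ cells (1.34 to 1.51). Ccnb1 reads were 0.0337 of those of Mki67 in iCD8a cells (0.0246 to 0.0450), 0.00953 in ILC1 cells (0.00475 to 0.0171) and 0.0359 in CD11b+ cells (0.0290 to 0.0441), so ILC1 had the smallest share of Ccnb1 reads relative to Mki67, outside the interval of either other library.

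In the replication set, the 6 subunits of the MCM helicase, the ring that unwinds DNA at the fork, did not move as 1 block. Mcm4 (ENSMUSG00000022673) had 95 CPM in iCD8a cells, 64.3 CPM in ILC1 cells and 169.7 CPM in CD11b+ cells, and was 2.64-fold lower in ILC1 cells than in CD11b+ cells (2.49 to 2.80). Mcm3 had 49.5 CPM in iCD8a cells, 27.6 in ILC1 cells and 62.9 in CD11b+ cells, and was 2.28-fold lower in ILC1 cells than in CD11b+ cells (2.08 to 2.50). Mcm6 (ENSMUSG00000026355) stood the other way round, at 113 CPM in iCD8a cells, 122 CPM in ILC1 cells and 64.4 CPM in CD11b+ cells. Its 1.89-fold higher level in ILC1 cells than in CD11b+ cells (1.78 to 2.01) fell short of the rule and passed it without scaling and with upper-quartile factors, at log2 ratios of 1.02 and 1.001. The within-library count ratio of Mcm6 over Mcm4 was 1.19 in iCD8a cells (1.13 to 1.26), 1.89 in ILC1 cells (1.77 to 2.02) and 0.380 in CD11b+ cells (0.359 to 0.401), a measure that no scaling factor changes. The other 3 subunits differed by less than a fold of 2 in each pair. Mcm2 had 74.0 CPM in iCD8a cells, 47.8 in ILC1 cells and 51.5 in CD11b+ cells. Mcm5 had 76.0 CPM in iCD8a cells, 50.3 in ILC1 cells and 63.9 in CD11b+ cells. Mcm7 had 66.6 CPM in iCD8a cells, 55.3 in ILC1 cells and 51.9 in CD11b+ cells. The subunits of the complex thus kept no common order over the 3 libraries.

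The loading of MCM rings onto origins is licensed by Cdc6 and Cdt1 and blocked by geminin, the product of Gmnn, which binds Cdt1. Cdt1 (ENSMUSG00000006585) had 10.2 CPM in iCD8a cells, 43.5 CPM in ILC1 cells and 20.7 CPM in CD11b+ cells. It was 4.28-fold lower in iCD8a cells than in ILC1 cells (3.71 to 4.95), the 1 member counted in that direction, and 2.04-fold lower in iCD8a cells than in CD11b+ cells (1.75 to 2.38). The second of these was not counted without scaling or at equal depth, at log2 ratios of −0.79 and −0.996. Cdt1 was 2.10-fold higher in ILC1 cells than in CD11b+ cells (1.89 to 2.33), in the library where the mitotic genes were lowest. Gmnn (ENSMUSG00000006715) had the opposite direction to Cdt1 in both pairs with ILC1 and the same direction between iCD8a and CD11b+, with 9.69 CPM in iCD8a cells, 5.95 CPM in ILC1 cells and 12.1 CPM in CD11b+ cells, and was 2.03-fold lower in ILC1 cells than in CD11b+ cells (1.65 to 2.50), a call lost under 3 of the other scalings at log2 ratios of −0.91 to −0.96. Within a library the count ratio of Cdt1 over Gmnn was 1.05 in iCD8a cells (0.871 to 1.26), 7.31 in ILC1 cells (6.08 to 8.84) and 1.72 in CD11b+ cells (1.5 to 1.97). The 3 intervals do not overlap. Cdc6 was low in each library, at 3.89 CPM in iCD8a cells, 2.91 in ILC1 cells and 5.18 in CD11b+ cells.

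The cyclins that drive the G1/S transition also divided within a pair. Ccne2 (ENSMUSG00000028212), which encodes cyclin E2, had 12.2 CPM in iCD8a cells, 12.3 CPM in ILC1 cells and 3.44 CPM in CD11b+ cells. It was 3.55-fold higher in iCD8a cells than in CD11b+ cells (2.81 to 4.51), the 1 member counted as higher there, and 3.58-fold higher in ILC1 cells than in CD11b+ cells (2.83 to 4.56). Ccne1, which encodes cyclin E1, had 3.51 CPM in iCD8a cells, 2.73 in ILC1 cells and 3.62 in CD11b+ cells, and no ratio of it was counted. The count ratio of Ccne2 over Ccne1 was 3.47 in iCD8a cells (2.71 to 4.49), 4.52 in ILC1 cells (3.4 to 6.08) and 0.951 in CD11b+ cells (0.713 to 1.27). E2f1, an activating E2F factor that is also a target of E2F, had 13.7 CPM in iCD8a cells, 10.04 in ILC1 cells and 22.9 in CD11b+ cells, and was 2.28-fold lower in ILC1 cells than in CD11b+ cells (1.96 to 2.67).

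**Figure D3:**
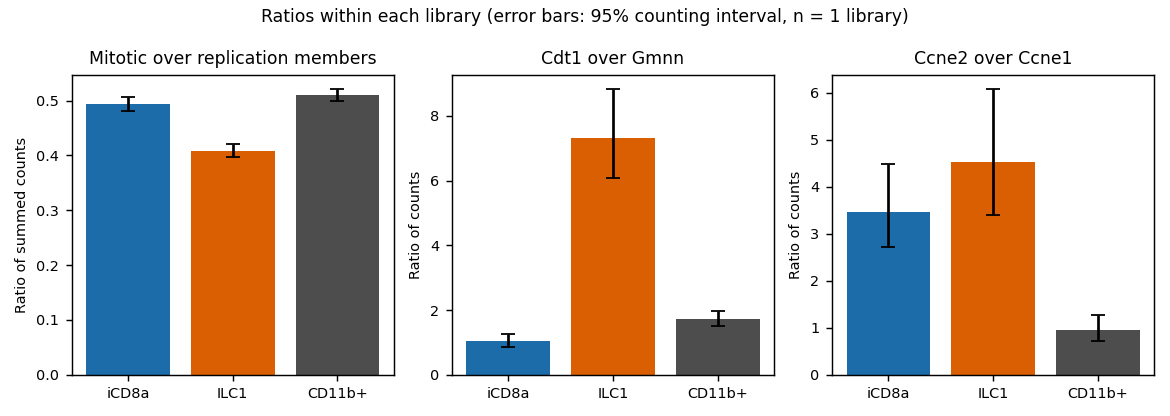
Count ratios within each library, which no scaling between libraries can change: the summed 20 mitotic over the summed 20 replication genes, Cdt1 over Gmnn, and Ccne2 over Ccne1. Bars start at 0 and error bars are 95% exact counting intervals for 1 library each. ILC1 has the lowest bar in the left panel, 0.409, and the highest in the middle panel, 7.31, and CD11b+ the lowest in the right panel, 0.951.

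Of 5 genes of the sliding clamp and of nucleotide supply, 2 were counted in a pair. Pcna, the clamp that holds polymerases on DNA, had 70.0 CPM in iCD8a cells, 95.1 in ILC1 cells and 78.8 in CD11b+ cells. Rrm1, the large subunit of ribonucleotide reductase, had 75.8 CPM in iCD8a cells, 68.2 in ILC1 cells and 58.2 in CD11b+ cells. Rrm2, the small subunit, had 22.5 CPM in iCD8a cells, 14.4 in ILC1 cells and 18.4 in CD11b+ cells. None of these 3 genes differed by a fold of 2 in any pair. Tyms, the enzyme that makes thymidylate, had 10.2 CPM in iCD8a cells, 6.41 in ILC1 cells and 14.3 in CD11b+ cells, and was 2.24-fold lower in ILC1 cells than in CD11b+ cells (1.84 to 2.73). Tk1, the thymidine kinase of S phase, had 11.0 CPM in iCD8a cells, 14.95 in ILC1 cells and 28.6 in CD11b+ cells, and was 2.59-fold lower in iCD8a cells than in CD11b+ cells (2.25 to 2.99). Tk1 differed from Tyms in that iCD8a, not ILC1, was its lowest library.

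Of the 3 chromatin genes, Hells was counted in 1 pair. Hells, a chromatin remodeller needed for DNA methylation, had 10.2 CPM in iCD8a cells, 18.9 CPM in ILC1 cells and 7.69 CPM in CD11b+ cells, and was 2.46-fold higher in ILC1 cells than in CD11b+ cells (2.08 to 2.91). Uhrf1, which guides the maintenance methyltransferase to replicated DNA, had 17.4 CPM in iCD8a cells, 14.7 in ILC1 cells and 26.02 in CD11b+ cells. Ezh2, the methyltransferase of Polycomb repressive complex 2, had 28.6 CPM in iCD8a cells, 36.7 in ILC1 cells and 28.5 in CD11b+ cells. ILC1 was thus highest for Hells and Ezh2 and lowest for Uhrf1.

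Summed over the 40 members, levels came to 1155 CPM in iCD8a cells, 1005 CPM in ILC1 cells and 1197 CPM in CD11b+ cells. The replication set made up most of the sum, and its total differed little, at 773 CPM in iCD8a cells, 714 in ILC1 cells and 793 in CD11b+ cells. Within it genes differed in opposite directions, since Mcm4 and Mcm3 were lower in ILC1 cells than in CD11b+ cells while Cdt1 was higher. The mitotic set summed to 382 CPM in iCD8a cells, 292 CPM in ILC1 cells and 404 CPM in CD11b+ cells. The ratio of summed mitotic over summed replication counts was 0.494 in iCD8a cells (0.481 to 0.506), 0.409 in ILC1 cells (0.397 to 0.421) and 0.510 in CD11b+ cells (0.499 to 0.522). ILC1 lay below both other libraries, whose intervals overlap each other. Without Cenpa, chosen after its values were seen, the ratio was 0.376 in iCD8a cells, 0.281 in ILC1 cells and 0.440 in CD11b+ cells. Per kilobase of transcript it was 0.508 in iCD8a cells, 0.404 in ILC1 cells and 0.469 in CD11b+ cells, so that ILC1 stayed lowest while iCD8a and CD11b+ changed places.

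Measured per kilobase of principal transcript, the median mitotic member stood at 2.86 CPM per kilobase in iCD8a cells, 1.52 in ILC1 cells and 3.99 in CD11b+ cells. It exceeded 31.7%, 25.1% and 35% of 12621 protein-coding genes in these libraries. The median replication member stood at 9.42, 9.74 and 10.5 CPM per kilobase, above 54.5%, 55.9% and 56.8% of those genes. Across the 40 members, levels per kilobase had a Pearson's r of 0.941 and a Spearman's rho of 0.929 between iCD8a and ILC1. The same values were 0.924 and 0.934 between iCD8a and CD11b+, and 0.866 and 0.875 between ILC1 and CD11b+. These are descriptions across 40 genes that share their libraries and their length correction.

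Other genes of the same steps were taken from 9 further lists, whose counts are read against the same percentages of all genes. Counted as higher and lower in the first-named library were 9.93% and 11.4% of all genes in iCD8a over ILC1. The percentages were 17% and 23% in iCD8a over CD11b+, and 16.6% and 23.1% in ILC1 over CD11b+. A share near these percentages does not set a list apart. Mitotic kinesins and cytokinesis genes had medians of the same sign as the mitotic members in both pairs with ILC1. Of 18, 5 were higher in iCD8a cells than in ILC1 cells and 0 lower, 2 were higher and 1 lower in iCD8a cells than in CD11b+ cells, and 0 were higher and 5 lower in ILC1 cells than in CD11b+ cells, with median log2 ratios of 0.70, 0.18 and −0.67. In both pairs with ILC1 the 5 genes were 27.8% of the list, against 9.93% and 23.1% of all genes. Kif15, a spindle motor, had 20.1 CPM in iCD8a cells, 5.36 in ILC1 cells and 8.54 in CD11b+ cells. Kif2c, a microtubule depolymerase, had 2.58 CPM in iCD8a cells, 0.772 in ILC1 cells and 3.72 in CD11b+ cells. Kif23, a motor of the midbody, departed from both, at 6.56 CPM in iCD8a cells, 10.2 in ILC1 cells and 25.6 in CD11b+ cells. Of 14 kinetochore and checkpoint genes, 4 were higher in iCD8a cells than in ILC1 cells and 0 lower, none was counted between iCD8a and CD11b+, and 3 were lower in ILC1 cells than in CD11b+ cells with 0 higher. The 4 and 3 genes were 28.6% and 21.4% of the list, against 9.93% and 23.1% of all genes. The median log2 ratios of the kinetochore and checkpoint genes were 0.50, 0.30 and −0.29. Mad2l1, the checkpoint protein Mad2, had 20.1 CPM in iCD8a cells, 9.63 in ILC1 cells and 11.4 in CD11b+ cells, and Nuf2, of the outer kinetochore, had 4.66 CPM in iCD8a cells, 2.0 in ILC1 cells and 5.6 in CD11b+ cells. The most abundant gene of each of these lists was not counted in any pair. Ckap5, a microtubule polymerase, had 73.6 CPM in iCD8a cells, 59.0 in ILC1 cells and 42.3 in CD11b+ cells, and Bub3, of the checkpoint, had 56.4 CPM in iCD8a cells, 41.8 in ILC1 cells and 52.8 in CD11b+ cells.

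**Figure D4:**
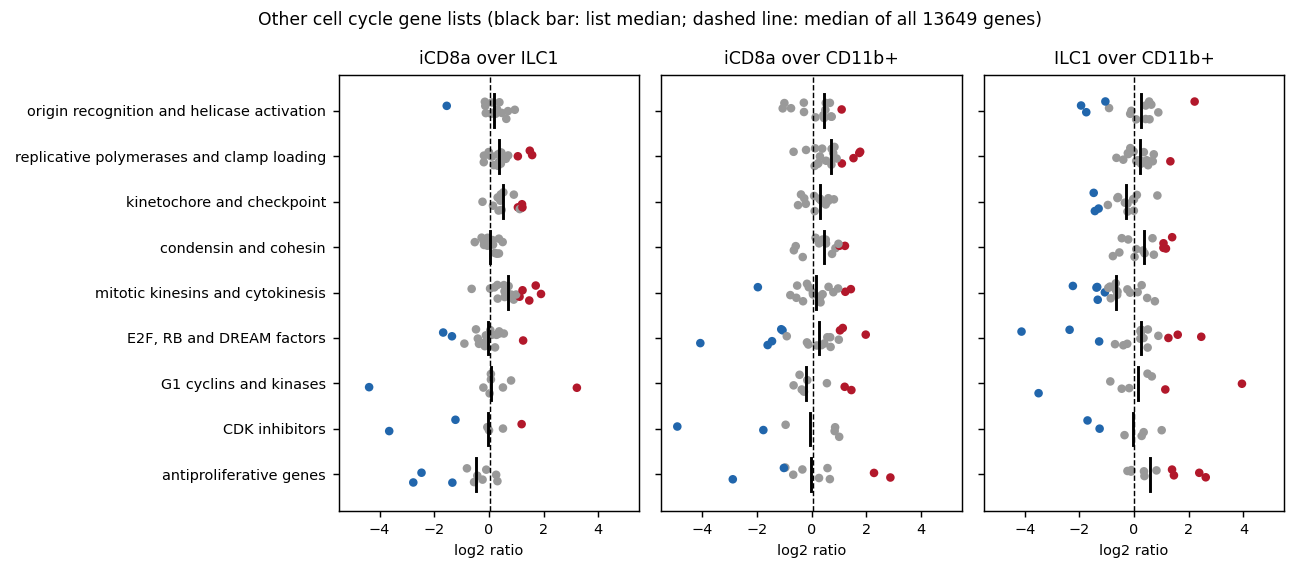
log2 ratios of the genes of 9 further cell cycle lists for the 3 pairs, with each list's median as a black bar and the median of all 13649 genes as a dashed line. Red and blue mark genes counted as higher and lower in the first-named library. The kinesin list has its median at 0.70 in the left panel and −0.67 in the right panel. Single genes of the E2F, G1 and CDK inhibitor lists lie beyond −4, that of the inhibitors at −4.91 in the middle panel.

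Condensin and cohesin genes, which compact chromosomes and hold sister chromatids, did not share the order of the mitotic members as a list. Of 14, none was counted between iCD8a and ILC1, 2 were higher in iCD8a cells than in CD11b+ cells, and 4 were higher in ILC1 cells than in CD11b+ cells, with 0 lower in any pair and median log2 ratios of 0.04, 0.46 and 0.35. The 2 and 4 genes were 14.3% and 28.6% of the list, against 17% and 16.6% of all genes. Smc4, a condensin subunit, had 151 CPM in iCD8a cells, 216 in ILC1 cells and 82.1 in CD11b+ cells, and Rad21, of cohesin, had 241 CPM in iCD8a cells, 273 in ILC1 cells and 122 in CD11b+ cells. Stag2, a cohesin subunit and the most abundant of the list, had 262.5 CPM in iCD8a cells, 300.2 in ILC1 cells and 182 in CD11b+ cells, and was not counted. The condensin genes Ncaph and Ncapg2 did have the order of the mitotic members, though neither was counted. Ncaph had 7.11 CPM in iCD8a cells, 6.50 in ILC1 cells and 11.1 in CD11b+ cells. Ncapg2 had 19.97 CPM in iCD8a cells, 17.2 in ILC1 cells and 24.95 in CD11b+ cells. Of 19 genes of the replicative polymerases and clamp loading, 3 were higher in iCD8a cells than in ILC1 cells, 4 were higher in iCD8a cells than in CD11b+ cells and 1 was higher in ILC1 cells than in CD11b+ cells, again with 0 lower and with medians of 0.36, 0.73 and 0.22. Rpa1, the large subunit of the single-strand binding protein, had 448 CPM in iCD8a cells, 159 in ILC1 cells and 133.5 in CD11b+ cells, and was 2.82-fold higher in iCD8a cells than in ILC1 cells (2.71 to 2.93). Pole2, a subunit of polymerase epsilon, had 13.5 CPM in iCD8a cells, 4.50 in ILC1 cells and 4.64 in CD11b+ cells. Of 14 origin recognition and helicase activation genes, 0 were higher and 1 lower in iCD8a cells than in ILC1 cells, 1 was higher and 0 lower in iCD8a cells than in CD11b+ cells, and 1 was higher and 3 lower in ILC1 cells than in CD11b+ cells, with medians of 0.20, 0.45 and 0.25. The 1 gene counted in both pairs with ILC1 was Dbf4, the activating subunit of the kinase that fires origins, with 23.6 CPM in iCD8a cells, 68.8 CPM in ILC1 cells and 14.8 CPM in CD11b+ cells. Like Cdt1, Dbf4 was highest in ILC1, 4.65-fold higher than in CD11b+ (4.17 to 5.20). The 3 genes counted as lower in ILC1 cells than in CD11b+ cells, Gins1, Gins3 and Mcm10, had the order of the mitotic members. Gins3 had 6.94 CPM in iCD8a cells, 3.59 in ILC1 cells and 13.8 in CD11b+ cells. Gins1 had 2.07, 1.27 and 4.32 CPM and Mcm10 4.15, 3.36 and 6.98 CPM in the same libraries. Orc3, of the origin recognition complex and the most abundant of the list, had 59.7 CPM in iCD8a cells, 64.7 in ILC1 cells and 44.1 in CD11b+ cells, and was not counted.

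Several regulators that act before S phase differed by larger folds than any member. Ccnd1, which encodes cyclin D1, had 44.6 CPM in iCD8a cells, 4.77 CPM in ILC1 cells and 53.9 CPM in CD11b+ cells, and was 9.34-fold higher in iCD8a cells than in ILC1 cells (7.64 to 11.5). Ccnd2, which encodes cyclin D2, had 676 CPM in iCD8a cells, 386 in ILC1 cells and 246 in CD11b+ cells, and Ccnd3, which encodes cyclin D3, had 145 CPM in iCD8a cells, 138 in ILC1 cells and 97.9 in CD11b+ cells. The count ratio of Ccnd2 over Ccnd1 was 15.2 in iCD8a cells (14.3 to 16.2), 80.9 in ILC1 cells (66.7 to 99.0) and 4.56 in CD11b+ cells (4.31 to 4.82). Myc, a transcription factor of growth and G1 entry, had 13.0 CPM in iCD8a cells, 272.5 CPM in ILC1 cells and 17.6 CPM in CD11b+ cells. It was 20.9-fold lower in iCD8a cells than in ILC1 cells (18.6 to 23.5) and 15.4-fold higher in ILC1 cells than in CD11b+ cells (14.1 to 17.0). The library with the most Myc transcript was thus the one with the lowest mitotic transcripts. Over the 8 genes of the list, 1 was higher and 1 lower in iCD8a cells than in ILC1 cells, 2 were higher and 0 lower in iCD8a cells than in CD11b+ cells, and 2 were higher and 1 lower in ILC1 cells than in CD11b+ cells, with medians of 0.07, −0.21 and 0.16.

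Inhibitors of cyclin-dependent kinases divided the libraries by gene. Cdkn1a, which encodes p21, had 13.8 CPM in iCD8a cells, 173 CPM in ILC1 cells and 414 CPM in CD11b+ cells, and was 12.6-fold lower in iCD8a cells than in ILC1 cells (11.2 to 14.1) and 30.1-fold lower in iCD8a cells than in CD11b+ cells (27.0 to 33.7). Cdkn1b, which encodes p27, had 430 CPM in iCD8a cells, 301 in ILC1 cells and 236 in CD11b+ cells. The count ratio of Cdkn1b over Cdkn1a was 31.3 in iCD8a cells (28.0 to 35.0), 1.74 in ILC1 cells (1.68 to 1.82) and 0.570 in CD11b+ cells (0.553 to 0.588). CD11b+ combined the highest p21 transcript with the highest mitotic cyclins. Cdkn2c, which encodes p18, had 22.5 CPM in iCD8a cells, 9.82 in ILC1 cells and 12.5 in CD11b+ cells, and Cdkn2d, which encodes p19, had 15.4 CPM in iCD8a cells, 35.9 in ILC1 cells and 29.6 in CD11b+ cells. Of 6 measured inhibitor genes of 7 listed, 1 was higher and 2 lower in iCD8a cells than in ILC1 cells, and 2 were lower with 0 higher in each pair with CD11b+, and the medians were −0.03, −0.05 and −0.04.

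**Figure D5:**
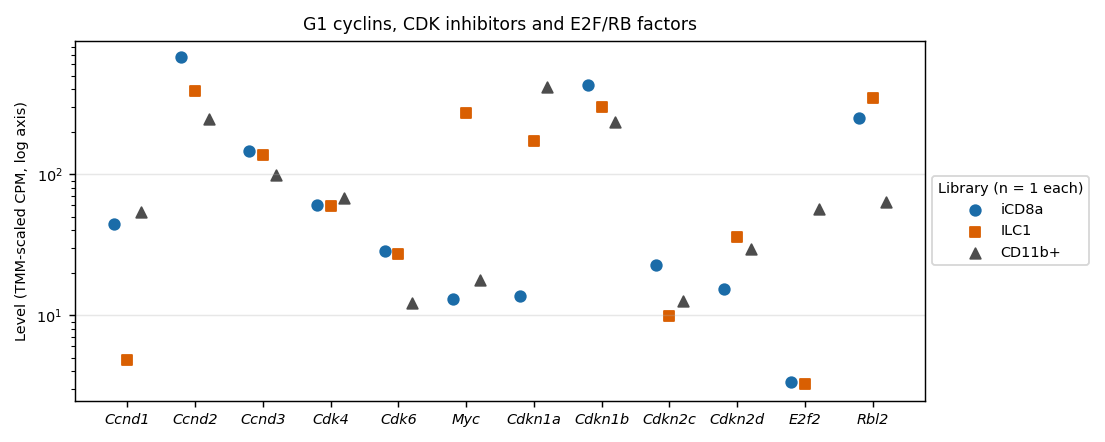
Levels in TMM-scaled CPM, on a log axis, of D-type cyclins, their kinases, Myc, CDK inhibitors, E2f2 and Rbl2 in the 3 libraries (1 library each). Myc at 272.5 CPM is far above the other libraries in ILC1, Ccnd1 at 4.77 CPM is far below them, and Cdkn1a ranges between 13.8 CPM in iCD8a and 414 CPM in CD11b+.

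Of 18 genes of the E2F, retinoblastoma and DREAM families, 1 was higher and 2 lower in iCD8a cells than in ILC1 cells, 3 were higher and 5 lower in iCD8a cells than in CD11b+ cells, and 3 were higher and 3 lower in ILC1 cells than in CD11b+ cells, with medians of −0.03, 0.28 and 0.25. Between iCD8a and CD11b+ the 3 and 5 genes were 16.7% and 27.8% of the list, against 17% and 23% of all genes. E2f2, an activating E2F, had 3.34 CPM in iCD8a cells, 3.23 CPM in ILC1 cells and 56.4 CPM in CD11b+ cells, and was 16.9-fold lower in iCD8a cells (13.4 to 21.4) and 17.5-fold lower in ILC1 cells (13.8 to 22.5) than in CD11b+ cells. E2f8, a repressive E2F of S phase and G2, had 7.28 CPM in iCD8a cells, 3.04 in ILC1 cells and 15.7 in CD11b+ cells, the order of the mitotic members. Rbl2, which encodes p130, the retinoblastoma protein of DREAM in resting cells, had 250 CPM in iCD8a cells, 348 CPM in ILC1 cells and 63.3 CPM in CD11b+ cells. Lin54, the DREAM subunit that binds CHR motifs, had 146.5 CPM in iCD8a cells, 273 in ILC1 cells and 90.2 in CD11b+ cells, so both were highest in ILC1 and lowest in CD11b+. Other genes of the list were divided. Rb1 and Lin9 had that order too, while Lin37, Lin52 and Rbl1 were highest in iCD8a, at 16.6, 16.6 and 53.6 CPM. Mybl2 and Tfdp1 were highest in CD11b+, at 9.29 and 47.5 CPM. E2f4 was highest in ILC1 but lowest in iCD8a, at 69.0 CPM in iCD8a cells, 91.5 in ILC1 cells and 77.45 in CD11b+ cells. Of 10 genes known to restrain proliferation, 0 were higher and 3 lower in iCD8a cells than in ILC1 cells, 2 were higher and 2 lower in iCD8a cells than in CD11b+ cells, and 4 were higher and 0 lower in ILC1 cells than in CD11b+ cells, with medians of −0.49, −0.03 and 0.60. Tob2, an antiproliferative adaptor of mRNA decay, had 104 CPM in iCD8a cells, 574 CPM in ILC1 cells and 209 CPM in CD11b+ cells. Klf2, a quiescence factor of lymphocytes, had 13.9 CPM in iCD8a cells, 94.7 in ILC1 cells and 102 in CD11b+ cells. Foxo1, a transcription factor that restrains the cycle, had 349 CPM in iCD8a cells, 291 in ILC1 cells and 47.2 in CD11b+ cells, and was 7.39-fold (6.98 to 7.84) and 6.16-fold (5.80 to 6.54) higher in iCD8a and in ILC1 cells than in CD11b+ cells. Btg1, the most abundant gene of the list, had 1027 CPM in iCD8a cells, 2596 in ILC1 cells and 1996 in CD11b+ cells, 2.53-fold lower in iCD8a cells than in ILC1 cells (2.49 to 2.57).

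Markers of cell types also differed in these pairs. The submitters call the CD11b+ cells myeloid, so macrophage, monocyte and dendritic cell markers there can be that population's own transcripts. Intestinal epithelial markers, genes of a tissue with dividing cells in its crypts, were lower in ILC1 cells than in CD11b+ cells for 11 of 12 genes with 0 higher, and lower in iCD8a cells than in CD11b+ cells for 9 with 1 higher, against 23.1% and 23% of all genes counted as lower in these pairs. The counts of the marker lists that follow are read against the same percentages of all genes as those of the members. The epithelial markers summed to 836 CPM in iCD8a cells, 462 CPM in ILC1 cells and 1471 CPM in CD11b+ cells, also the order of the mitotic members. Their median level did not keep that order, at 14.15 CPM in iCD8a cells, 14.47 in ILC1 cells and 74.46 in CD11b+ cells. Between iCD8a and ILC1, 8 markers were above and 4 below a log2 ratio of 0. Cdh1, at 359 CPM in iCD8a cells, 289 in ILC1 cells and 208 in CD11b+ cells, was lowest in CD11b+. In any library, 0 of the 12 markers had a count of 0. Of these 12 markers, 2 were higher in iCD8a cells than in ILC1 cells and 0 lower, namely Epcam, at 154 CPM against 31.3 CPM, and Cdh17, at 193 CPM against 19.1 CPM. Of 8 crypt stem markers 6 were measured. Axin2 and Rnf43 were higher in iCD8a and in ILC1 cells than in CD11b+ cells, and the other 4 were lower. Olfm4 had 1.35 CPM in iCD8a cells, 2.23 in ILC1 cells and 15.2 in CD11b+ cells. Lgr5 and Ascl2, which define the crypt stem cell, were at or near 0, with Lgr5 at 9 reads in iCD8a cells, 4 in ILC1 cells and 6 in CD11b+ cells, and Ascl2 at 0, 0 and 2 reads. Macrophage and monocyte markers were lower in iCD8a and in ILC1 cells than in CD11b+ cells for 10 of 10. In iCD8a, 8 of them were lower than in ILC1 and 1 was higher. They summed to 32.5 CPM in iCD8a cells, 385 CPM in ILC1 cells and 7893 CPM in CD11b+ cells. Of 8 dendritic cell markers, 5 were higher and 1 lower in iCD8a cells than in ILC1 cells, 6 were lower and 1 higher in iCD8a, and 5 lower and 0 higher in ILC1, than in CD11b+, and the list summed to 1374 CPM in iCD8a cells, 1231 CPM in ILC1 cells and 28321 CPM in CD11b+ cells, of which Cd74 held 18551. Of 6 plasmacytoid dendritic cell markers, 5 were higher and 1 lower in iCD8a cells than in ILC1 cells, 4 were higher and 0 lower in iCD8a, and 1 higher and 4 lower in ILC1, than in CD11b+, and the list summed to 1116 CPM in iCD8a cells, 1272 CPM in ILC1 cells and 389 CPM in CD11b+ cells. Irf8 alone, also a transcription factor of other immune cells, held 470 CPM of that sum in iCD8a cells, 1183 in ILC1 cells and 239 in CD11b+ cells. Of the other 5 markers 4 were lowest in ILC1, and Siglech had 224 CPM in iCD8a cells, 0.954 in ILC1 cells and 12.9 in CD11b+ cells. The part of these cells in the levels of the cell cycle genes was not tested.

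Some members have copies or neighbours that could take or give reads. More than 10% of the 50-base stretches in the transcripts of Ccnb1 (23.4%), Pcna (19.1%), Mcm7 (18.1%), Uhrf1 (15.4%) and Cdc20 (10.4%) also occur in transcripts of other genes, so their levels are uncertain. The pseudogene rows named for members held at most 12 reads each. An antisense gene covers over 10% of the exons of Kif20a (29.3%), Ube2c (22.8%), Ccne2 (17.4%) and Ccna2 (12.5%). Without a stated strand setting, reads of the partner cannot be told apart from theirs.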

How the data were processed

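The authors deposited raw read counts per Ensembl gene for 3 libraries, with no normalization. Per the series' design text, reads were aligned with TopHat and counted with HTSeq, and CASAVA 1.9 and TopHat2 stand in the submitters' processing notes. Genome build, annotation and strand setting: not given in the sources used here. The 5 rows that name no gene were left out. Shares of all counts, gene and non-gene together, follow for iCD8a, ILC1 and CD11b+. Alignments that were not unique made up 26.9%, 34.5% and 30.5%, reads in no gene 9.31%, 11.0% and 8.56%, and ambiguous reads 1.08%, 0.889% and 0.922%. Mitochondrial genes held 1.60%, 2.09% and 9.53% of gene counts.

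Symbols were matched by ID to GENCODE for 35449 of 37224 IDs. TMM factors (edgeR 4.0.16, R 4.3.3) were 1.09, 0.992 and 0.925. Ratios of scaled counts carry 95% exact conditional binomial (Clopper-Pearson) intervals (scipy 1.17.1, Python 3.11.15), which cover counting error only. Reads are not independent molecules, so the intervals can be too narrow even for that error. The log2 ratios use a prior count of 0.5, over genes that reached 1 CPM in at least 1 library. With 1 library per population edgeR and DESeq2 1.42.0 gave scaling factors only. Levels per kilobase use the principal transcript. The steps were tested on simulated counts. Alternatives were other scalings, gene sets, equal depth, CPM minimums, folds and prior counts.

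The members and all gene lists were chosen with earlier results of these data known. The rule for names took all 40 members, the sorting antigens and, of each further list, at most the 4 most abundant genes and, for each pair, at most 2 higher and 2 lower genes whose near bounds were largest. Not every gene it allows is printed, and the selection among them was made after their values were seen. Lgr5, Ascl2, Lin9, Lin37, Lin52, Rbl1, Mybl2, Tfdp1, Ncaph, Ncapg2 and Mcm10 lie outside it. Of each set, the promoters shown were those of the 2 most abundant members whose entry held a motif. No test of a list was run.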

Additional observations from a re-analysis of the deposited data

Results flagged for a closer look

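Alignments that were not unique lie outside the gene counts and enter none of the comparisons. They made up 26.94% of all counts, gene and non-gene together, in iCD8a, 34.49% in ILC1 and 30.53% in CD11b+. The share was highest in ILC1, the library in which 18 of 20 mitotic genes were lowest. How many of these alignments belong to members was not tested.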

How the results depend on the processing

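No paired analysis was possible because each population had 1 library. The median log2 ratio of the members kept its sign under every alternative run, between 0.53 and 0.73 for iCD8a over ILC1, −0.30 and −0.04 for iCD8a over CD11b+, and −0.86 and −0.75 for ILC1 over CD11b+. Without scaling, the median of all genes moved by 0.14, 0.25 and 0.11 in the same pairs, and 2 members were higher and 1 lower in iCD8a cells than in CD11b+ cells. Under it the medians for iCD8a over CD11b+ were −0.08 in the mitotic set, against −0.32 with TMM, and 0.13 in the replication set, against −0.11 with TMM. The counts of mitotic members lowest in ILC1, highest in CD11b+ and in the full order, recomputed under 7 other scalings or depths added after seeing the data, were 18, 15 and 15 except without scaling, where they were 18, 13 and 13. With a fold of 4 and a near bound of 2, changed together, 0 members were higher and 1 lower in iCD8a cells than in ILC1 cells (4.32% and 5.74% of all genes), 0 higher and 0 lower in iCD8a cells than in CD11b+ cells (7.05% and 16.1%), and 0 higher and 2 lower in ILC1 cells than in CD11b+ cells (6.44% and 15.2%). With a fold of 1.5 and a near bound of 1, 21 were higher and 2 lower in iCD8a cells than in ILC1 cells (20.3% and 19.2%), 5 higher and 12 lower in iCD8a cells than in CD11b+ cells (28.8% and 30%), and 5 higher and 23 lower in ILC1 cells than in CD11b+ cells (28.3% and 31%). Without the 4 members under an antisense gene, an alternative added after seeing the data, 0 were higher in iCD8a cells than in CD11b+ cells.

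The ratio of mitotic over replication counts moved with the genes that were summed. Per kilobase it was 0.508 in iCD8a and 0.469 in CD11b+. Without Cenpa and Mcm4, the most abundant gene of each set, it was 0.428 in iCD8a cells, 0.309 in ILC1 cells and 0.560 in CD11b+ cells. Chosen after seeing the data, the sums without the 5 members that share sequence gave 0.605 in iCD8a cells, 0.526 in ILC1 cells and 0.622 in CD11b+ cells, and those without Cenpa gave 0.376, 0.281 and 0.440. ILC1 was lowest in each of these. In calls of single members, DESeq2 factors ended those of Cdk1 and Cenpf between iCD8a and ILC1, as did upper-quartile factors and protein-coding genes alone. Depth limits Ccnb1, Plk1 and Aurka most, with 11, 34 and 46 reads in ILC1.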
